A study of Aspergillus nidulans with 4 samples.

Results

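Transcripts of Aspergillus nidulans mycelium grown on glucose with urea were compared with those of mycelium grown on fructose with ammonium, by joining the sense read counts of both libraries gene by gene. Of the 7752 genes with a sense count for any medium, 7425 had a count, 0 included, for both media and form the comparison. A gene low in a medium and in the libraries deposited as its pairs has no listed count there. Some strongly differing genes are therefore left out of the counts below. The strain carried biA1, an allele that makes the fungus need biotin, and serves the study as wild type in every medium. Each library came from 1 pool of RNA of 3 cultures, depleted of ribosomal RNA and prepared with a strand-specific kit. Mycelium grew in minimal medium for 9 to 12 h at 37 °C. The glucose-urea medium held 1% glucose, a repressing carbon source, and urea, a nitrogen source that does not repress. The fructose-ammonium medium held 0.1% fructose, a non-repressing carbon source, and 10 mM ammonium tartrate, a repressing nitrogen source. For urea the labels give both 10 mM and 5 mM, and which of them applies was not resolved. The other 2 libraries of the series, glucose with ammonium and fructose with urea, are used here only to place the genes of the comparison.

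Filamentous fungi use preferred nutrients first. When ammonium or glutamine is plentiful, genes for other nitrogen sources are held low, and when it is scarce the GATA factor AreA activates them, with NmrA restraining AreA. When glucose is plentiful, the zinc-finger repressor CreA holds down genes for other carbon sources, for gluconeogenesis and for polymer breakdown. On this scheme glucose with urea would relieve nitrogen repression alone, and fructose with ammonium carbon repression alone. Whether each medium did so was not tested. Because the pair changes both nutrients at once, adds tartrate on 1 side only and lowers the amount of sugar with its kind, the contributions of carbon, nitrogen, tartrate and sugar amount to a ratio cannot be told apart from this pair.

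The listed sense counts summed to 1698692 for glucose-urea, 547041 for fructose-ammonium, 2606076 for glucose with ammonium and 812637 for fructose with urea. A level of 3 reads corresponded to 1.77 CPM (reads of a gene per 1000000 listed sense reads) in glucose-urea and to 5.48 CPM in fructose-ammonium, so low levels were resolved less well in the latter. With 1 library per condition no test is possible. Ratios are log2 values of glucose-urea over fructose-ammonium after TMM scaling, with exact 95% Clopper-Pearson intervals that cover counting error only, since amplified reads are not independent molecules and differences between cultures were not measured. "Higher" and "lower" therefore describe these libraries. In a pool of whole mycelium, fewer cells of a kind and less RNA per cell cannot be told apart. Of markers for conidiophores and conidia, only brlA and ivoB of 9 were in the comparison, with 0 and 4 reads in glucose-urea and 3 and 9 in fructose-ammonium, or 2.35 and 21.9 CPM together.

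Most transcripts were at similar levels in both media. Of 6643 genes with a mean abundance of at least 3 on the log2 CPM scale, 4101 (61.7%) lay within 2-fold, and the median log2 ratio was 0.06 with quartiles of -0.67 and 0.82. At least 4-fold higher in glucose-urea were 378 genes (5.69% of the genes measured), and at least 4-fold higher in fructose-ammonium were 442 (6.65%), 12.3% together. The 2 sides differed in their tails, with 39 genes at least 16-fold higher in glucose-urea and 118 in fructose-ammonium. They also differed in the reads behind them. Of the 378 genes, 204 (54.0%) had 3 or fewer reads in fructose-ammonium, against 93 of the 442 (21.0%) in glucose-urea. Genes at 0 in 1 library passed only if 3 reads in place of the 0 still gave 4-fold. That rule left out 52 genes on the glucose-urea side and 0 on the other. Fructose-ammonium was the shallower library, so large ratios were harder to reach on the glucose-urea side. What depth contributes to the difference between the sides was not tested. Genes whose whole counting interval lay beyond 4-fold numbered 67 for glucose-urea and 267 for fructose-ammonium, so for most of the former the counting interval reached under 4-fold.

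**Figure D1:**
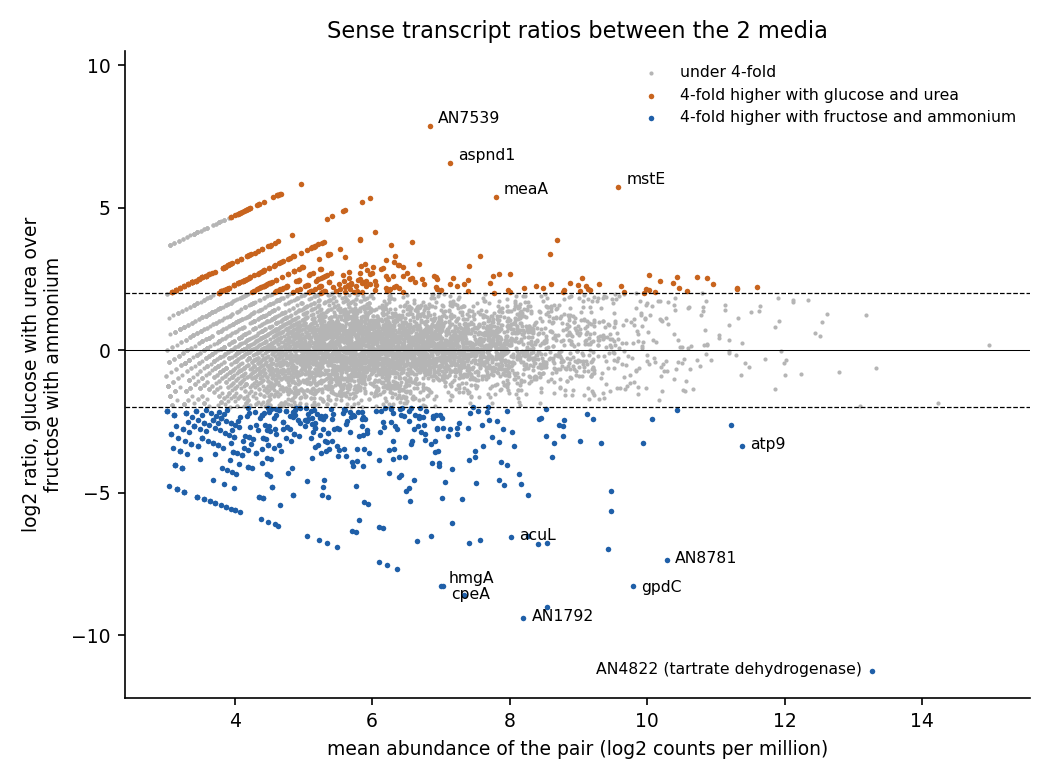
Each point is 1 of 6643 genes, with the mean abundance of both libraries in log2 CPM on the horizontal axis and the log2 ratio of glucose-urea over fructose-ammonium on the vertical axis; coloured points are the 378 and 442 genes past 4-fold, shown by the dashed lines. The fructose-ammonium side reaches further from 0, down to -11.25 for the tartrate dehydrogenase gene AN4822, and the diagonal stripes at low abundance are genes with 0, 1 or a few reads in 1 library.

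The lowest ratio of all belonged to AN4822, a putative tartrate dehydrogenase, an enzyme that oxidises tartrate. Its level was 7.06 CPM in glucose-urea, 19920 CPM in fructose-ammonium, 1114 CPM in glucose with ammonium and 43.1 CPM in fructose with urea, and the log2 ratio was -11.25 (-12.38 to -10.62). Both media with ammonium tartrate were thus high, and both with urea were low. AN11233, with chitinase and chitin-binding domains, is its neighbour on chromosome III in the RefSeq gene order, and was at 0.589, 775, 27.2 and 4.92 CPM in the same order of media (log2 ratio -9.00, -15.63 to -7.84). On the other side of AN4822 lies AN4821, a predicted zinc-binding DNA-binding protein, with 12 reads in glucose-urea, 98 in fructose-ammonium, 28 in glucose with ammonium and 2 in fructose with urea. These 3 neighbours shared the order fructose-ammonium, glucose with ammonium and then the urea media when reads are scaled to depth.

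The gene gpdC (AN2583), for a putative glyceraldehyde-3-phosphate dehydrogenase of glycolysis and gluconeogenesis, was high in fructose-ammonium alone of the 4 media. It was at 4.71 CPM in glucose-urea, 1797 CPM in fructose-ammonium, 3.84 CPM in glucose with ammonium and 41.8 CPM in fructose with urea, a log2 ratio of -8.29 (-9.75 to -7.55). The main glycolytic gene for the same step, gpdA (AN8041), chosen for this contrast after its values were seen, was level at -0.05 (-0.14 to 0.04), with 3820 and 1306 reads. Next to gpdC in the gene order on chromosome VII, the transporter-like AN2584 and AN2585 had 35 and 205 reads in glucose-urea against 314 and 648 in fructose-ammonium, and all 3 passed 4-fold. AN1792, with a predicted lipid ester hydrolase domain, had 0 reads in glucose-urea and 335 in fructose-ammonium, at least 338-fold higher in the latter when 3 reads stand for the 0. Its levels in glucose with ammonium and fructose with urea were 11.5 and 19.7 CPM, so it too was high in 1 medium of the 4. AN7108, whose orthologues bind ATP, was at 10.0, 1397, 104 and 12.3 CPM, with glucose with ammonium above both urea media, the order seen for AN4822.

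The remaining genes among the 15 lowest ratios were high in both fructose media. AN8781, which has no described function, reached 2526 CPM in fructose-ammonium and 4617 CPM in fructose with urea, against 14.1 and 6.52 CPM in glucose-urea and glucose with ammonium (log2 ratio -7.36, -8.09 to -6.86). The putative oxidoreductase AN12088 had 5.89 CPM in glucose-urea, 764 CPM in fructose-ammonium and 5192 CPM in fructose with urea. AN5444, annotated as a tryptophan synthase, stood at 5.30, 704, 7.29 and 1164 CPM in glucose-urea, fructose-ammonium, glucose with ammonium and fructose with urea. It is 1 of 2 genes 4-fold higher in fructose-ammonium among 48 amino acid biosynthesis genes (4.17%, against 6.65% of all genes). In that list 5 genes were 4-fold higher in glucose-urea (10.4%, against 5.69%), and the median was 0.41. A further 5 genes without a firm function, AN8611, AN10588, AN5060, AN12477 and AN0301, had 0 reads in glucose-urea and 190, 101, 92, 86 and 59 in fructose-ammonium, and against 3 reads in place of each 0 their bounds were 192-fold, 102-fold, 92.8-fold, 86.7-fold and 59.5-fold.

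**Figure D2:**
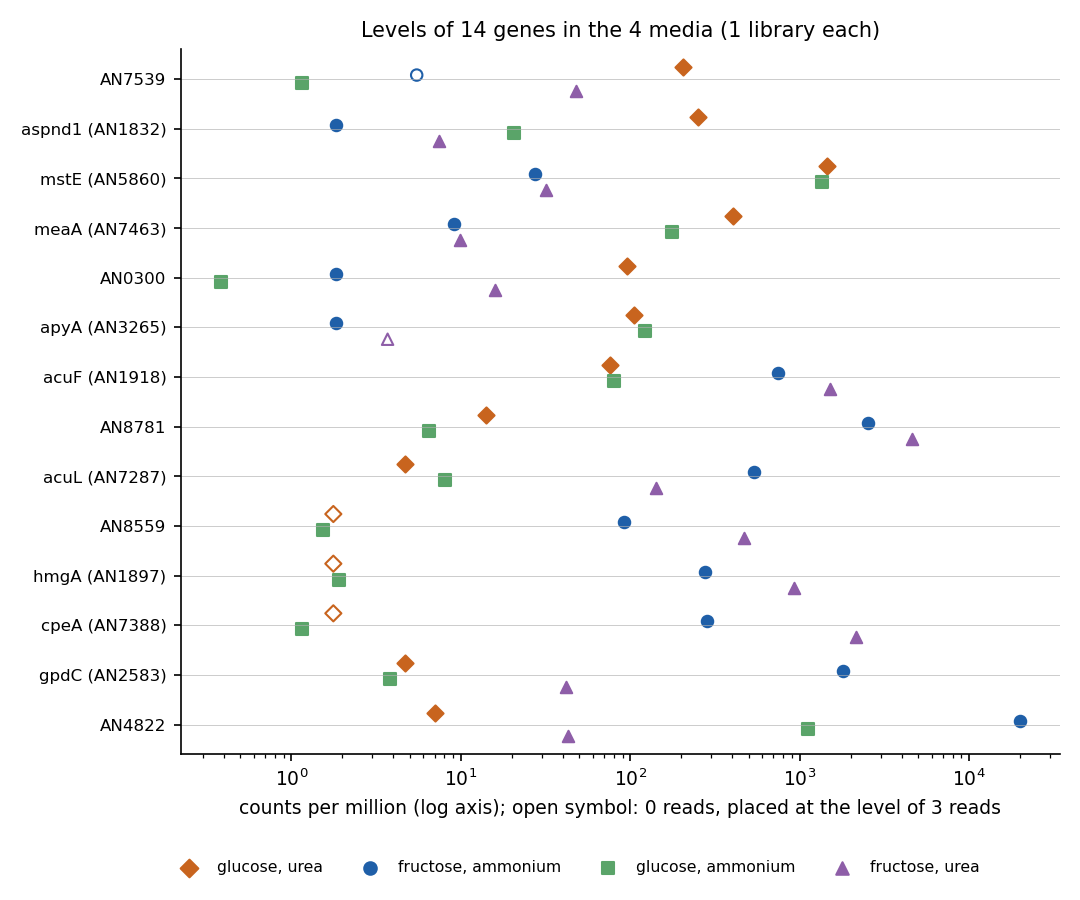
Levels of 14 genes in CPM on a log axis, 1 symbol for each of the 4 libraries; open symbols are libraries with 0 reads, drawn at the level of 3 reads. The glucose-urea symbol lies with glucose and ammonium for mstE, apyA and the genes from acuF to cpeA, while AN4822 and gpdC are high in fructose-ammonium and AN7539 and AN0300 in glucose-urea.

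On the glucose-urea side the highest ratio was that of AN7539, a putative hydrophobin, one of the small amphipathic proteins that coat fungal surfaces. It had 348 reads in glucose-urea, 0 in fructose-ammonium, 3 in glucose with ammonium and 39 in fructose with urea, so it was at least 38.4-fold higher in glucose-urea. Both urea media were above both ammonium media, a split whose share among all genes was not computed. The other hydrophobin gene past the abundance minimum had a ratio below 2-fold, and the median of both was 3.68, or 2.38 with AN7539 at its bound. The membrane glycoprotein gene aspnd1 (AN1832), described as rising under zinc limitation, followed with 253 CPM in glucose-urea, 1.83 CPM in fructose-ammonium, 20.7 CPM in glucose with ammonium and 7.38 CPM in fructose with urea. Its log2 ratio was 6.57 (4.66 to 12.46), from 429 reads against 1.

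Genes higher in both glucose media came next. The low-affinity glucose transporter gene mstE (AN5860) was at 1452 CPM in glucose-urea and 1362 CPM in glucose with ammonium, against 27.4 and 32.0 CPM in fructose-ammonium and fructose with urea, a log2 ratio of 5.72 (5.04 to 6.60). The arrestin-like apyA (AN3265), related to yeast Rod1, a factor in transporter endocytosis, was at 105 and 123 CPM in the glucose media and 1.83 and 0 CPM in the fructose media. AN7144, whose orthologues assemble respiratory complex III, had 63 reads in glucose-urea and 0 in fructose-ammonium (at least 6.94-fold higher), 91 in glucose with ammonium and 0 in fructose with urea. For these 3 genes the 2 glucose libraries did not overlap the 2 fructose libraries. The genes were picked by the ratio of glucose-urea over fructose-ammonium, which already sets those libraries apart. How many of all genes split in this way was not computed, so the split has no baseline.

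A further 8 of the 15 highest ratios came from genes with 54 to 83 reads in glucose-urea and 0 in fructose-ammonium, so their size is bounded only by the depth of the latter. AN4830, with orthologues in coenzyme A synthesis, was at least 9.15-fold higher in glucose-urea. AN12121, related to the ubiquitin-like tag protein of tRNA thiolation, was at least 7.27-fold higher, and AN3779, related to exopolyphosphatases, at least 7.05-fold. AN3400, related to a melanin pathway reductase, was also at least 7.05-fold higher, and differed from the rest in standing at 2.30 CPM in glucose with ammonium against 37.7 CPM in glucose-urea. AN10771, AN10627, AN6684 and AN4682 were bounded at 7.16-fold, 6.94-fold, 6.61-fold and 5.95-fold.

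The members of 40 gene lists were then described by how many passed 4-fold in each direction and by their median, beside 378 and 442 of 6643 and a median of 0.06 for all genes. Among lists with at least 3 measured members, 2 had a median at least 2-fold higher in glucose-urea and 8 in fructose-ammonium. The former were the cytosolic ribosomal proteins and ammonium transport and assimilation. The latter were the breakdown of phenylalanine and tyrosine, the breakdown of branched-chain amino acids, sugar transporters, gluconeogenesis, sexual development, ethanol and acetate use, autolysis, and polyketide and peptide synthases. Of these, the branched-chain list was put together after values had been seen, so its median does not stand beside the others as a free result.

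**Figure D3:**
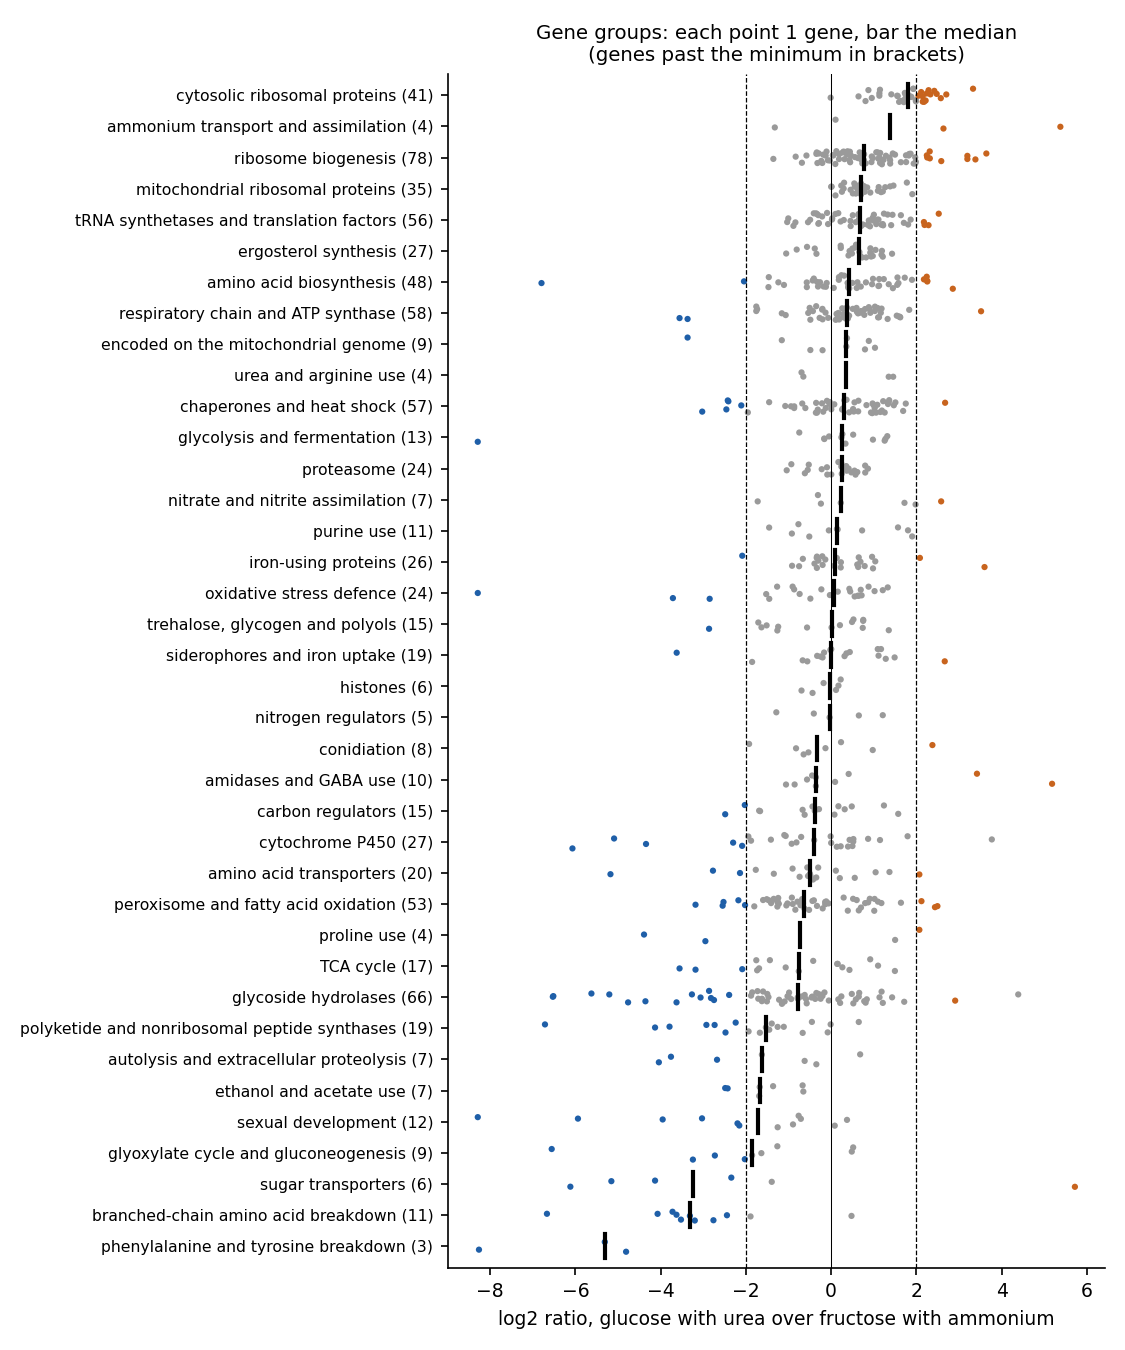
Log2 ratio of glucose-urea over fructose-ammonium for each measured member of the gene lists with at least 3 of them, 1 point per gene, with the median as a bar, the number of genes in brackets and dashed lines at 4-fold. Ribosomal proteins form a compact group on the right with a median of 1.80, proteasome and histone genes stay near 0, and the lists at the bottom have medians from -1.53 to -5.31.

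Among genes for ammonium, the transporter gene meaA (AN7463) was 1 of the 15 highest ratios. Its level was 406 CPM in glucose-urea, 9.14 CPM in fructose-ammonium, 176 CPM in glucose with ammonium and 9.84 CPM in fructose with urea, a log2 ratio of 5.38 (4.28 to 7.14). Both fructose media were low whichever nitrogen source they held. NADP-linked glutamate dehydrogenase, which fixes ammonium into glutamate, is encoded by gdhA (AN4376), and stood at 1741, 287, 1671 and 144 CPM in the same order (log2 ratio 2.64, 2.41 to 2.88). Glutamine synthetase and glutamate synthase form the other route of ammonium assimilation. Their genes glnA (AN4159) and gltA (AN5134), the remaining list members in the comparison, had log2 ratios of 0.10 (-0.01 to 0.22) and -1.32 (-1.48 to -1.16). The ammonium permease gene mepA (AN1181), with 122 reads in glucose-urea, had no listed count for fructose-ammonium and so no ratio.

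Genes for using other nitrogen sources did not share a direction. In nitrate assimilation 1 of 7 genes passed 4-fold, niaD (AN1006) for nitrate reductase, at 57.7 CPM in glucose-urea, 9.14 CPM in fructose-ammonium, 39.5 CPM in glucose with ammonium and 1.23 CPM in fructose with urea (log2 ratio 2.58, 1.42 to 4.35). None of the 4 urea and arginine genes in the comparison did. The urea transporter gene ureA (AN0418), with 151 reads in glucose-urea, had no listed count for fructose-ammonium and is in none of these values. The urease structural gene ureB (AN10079) had a log2 ratio of 1.46 (0.45 to 2.78), ureD (AN0232), for a urease accessory protein, 1.35 (1.06 to 1.66), and the arginase gene agaA (AN2901) -0.69 (-1.22 to -0.17). Nor did any of 11 purine genes, of which the cytosine-purine transporter gene fcyB (AN10767) was highest at 1.90 (0.41 to 4.41) with 38 reads against 3. The list medians were 0.23, 0.35 and 0.14, near that of all genes.

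Amidases release ammonium from amides. The putative asparaginase gene AN0300 had 163 reads in glucose-urea, 1 in fructose-ammonium, 1 in glucose with ammonium and 13 in fructose with urea. Its log2 ratio was 5.18 (3.25 to 11.06). Both urea media were thus above both ammonium media, a split whose share among all genes was not computed. The regulator gene amdA (AN2270), with 47 reads in glucose-urea and 1 in fructose-ammonium, had a log2 ratio of 3.42 (1.41 to 9.29). The other 8 of the 10 measured members stayed under 4-fold, and the list median was -0.36.

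Several genes for breaking down amino acids lay far on the fructose-ammonium side. Proline is taken up by PrnB and oxidised in mitochondria by PrnD and PrnC. The proline oxidase gene prnD (AN1731) was at 7.65 CPM in glucose-urea, 183 CPM in fructose-ammonium, 0.767 CPM in glucose with ammonium and 295 CPM in fructose with urea, and prnC (AN1733) at 7.06, 62.2, 3.45 and 340 CPM. Their log2 ratios were -4.39 (-5.50 to -3.70) and -2.95 (-4.18 to -2.11). The permease gene prnB (AN1732), a neighbour in the same gene cluster, went the other way at 2.07 (0.97 to 3.65), with 81 reads in glucose-urea and 6 in fructose-ammonium. The list of 4 measured proline genes, including the activator gene prnA, had a median of -0.72.

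For phenylalanine and tyrosine, all 3 measured genes were at least 4-fold higher in fructose-ammonium, with a median of -5.31. A further gene of the list, fahA (AN1896), fell under the abundance minimum, with 4 reads in glucose-urea and 6 in fructose-ammonium. Its log2 ratio was -1.84 (-4.45 to -0.11). The homogentisate dioxygenase gene hmgA (AN1897) had 0 reads in glucose-urea, 152 in fructose-ammonium, 5 in glucose with ammonium and 747 in fructose with urea, at least 153-fold higher in fructose-ammonium than in glucose-urea. The gene for the preceding enzyme, hpdA (AN1899), was at 4.12, 203, 0.767 and 1443 CPM in glucose-urea, fructose-ammonium, glucose with ammonium and fructose with urea, and that for the following one, maiA (AN1895), at 1.18, 58.5, 0 and 201 CPM. Their log2 ratios were -5.31 (-6.93 to -4.49) and -4.81 (-8.70 to -3.63).

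Branched-chain amino acid breakdown, a list put together after values had been seen, held 11 measured genes, of which 9 were 4-fold higher in fructose-ammonium and none in glucose-urea, with a median of -3.31. Its 13 genes in the comparison summed to 149 CPM in glucose-urea, 1121 CPM in fructose-ammonium, 160 CPM in glucose with ammonium and 6619 CPM in fructose with urea. The branched-chain keto acid dehydrogenase subunit gene AN8559 had 0 reads in glucose-urea and 50 in fructose-ammonium (at least 50.4-fold higher in the latter), and AN1726, for another such dehydrogenase, was at -4.07 (-5.31 to -3.32). The methylcrotonyl-CoA carboxylase gene mccA (AN4690), for a step of leucine breakdown, was at 6.48, 98.7, 8.44 and 645 CPM, a log2 ratio of -3.72 (-4.98 to -2.94). The methylcitrate synthase gene mcsA (AN6650), for propionyl-CoA removal, followed at -3.63 (-6.05 to -2.50) with 4 reads against 22. Thus glucose-urea lay beside glucose with ammonium for this list, and fructose with urea was the highest.

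Among 20 amino acid transporter genes, 3 were 4-fold higher in fructose-ammonium (15%, against 6.65% of all genes). In glucose-urea prnB alone was (5%, against 5.69%), and the median was -0.49. AN1659 stood at 6.48, 272, 1.53 and 517 CPM in glucose-urea, fructose-ammonium, glucose with ammonium and fructose with urea (log2 ratio -5.18, -6.39 to -4.48). AN2043 and AN3345, both with a predicted amino acid transport domain, had log2 ratios of -2.77 (-4.02 to -1.91) and -2.14 (-2.66 to -1.68).

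Of 5 nitrogen regulators, 3 were within 2-fold between the media. The activator gene areA (AN8667) was at 87.1 CPM in glucose-urea, 56.7 CPM in fructose-ammonium, 62.2 CPM in glucose with ammonium and 134 CPM in fructose with urea, a log2 ratio of 0.65 (0.09 to 1.27). The other GATA gene areB (AN6221) was at 1.21 (0.04 to 2.80), the AreA-restraining nmrA (AN8168) at -0.41 (-1.23 to 0.44), the co-activator gene tamA (AN2944) at -1.29 (-2.59 to -0.13) and meaB (AN4900) at -0.04 (-0.81 to 0.80). None of these regulators passed 4-fold, and their median was -0.04.

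On the carbon side the repressor gene creA (AN6195) was itself lower in glucose-urea, at 46.5 CPM against 154 CPM in fructose-ammonium, with 47.6 CPM in glucose with ammonium and 196 CPM in fructose with urea (log2 ratio -1.67, -2.15 to -1.22). The 2 fructose libraries lay above the 2 glucose libraries, though how many of all genes do so was not computed. Of the genes creB (AN3587), creC (AN4166) and creD (AN4170), which act with CreA through ubiquitin, creB had 23 reads in glucose-urea and 6 in fructose-ammonium (0.32), creC was at 0.08 (-0.78 to 1.02) and creD at 1.24 (0.82 to 1.70). Of 15 carbon regulators with a median of -0.38, those past 4-fold were facB (AN0689), the activator of acetate use, at -2.49 (-2.84 to -2.17), and acuK (AN7468), a regulator of gluconeogenesis, at -2.03 (-2.53 to -1.57). The alcohol regulator gene alcR (AN8978) and the protease regulator gene xprG (AN1414) were at -0.67 (-1.42 to 0.08) and -0.62 (-1.63 to 0.40).

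Gluconeogenesis builds sugar from smaller carbon compounds. Of its 9 measured genes, together with the glyoxylate cycle, 4 were 4-fold higher in fructose-ammonium and none in glucose-urea, with a median of -1.85. The largest difference was that of acuL (AN7287), a mitochondrial carrier gene, at 4.71 CPM in glucose-urea, 539 CPM in fructose-ammonium, 8.06 CPM in glucose with ammonium and 143 CPM in fructose with urea (log2 ratio -6.56, -8.03 to -5.80). Phosphoenolpyruvate carboxykinase, the entry enzyme, is encoded by acuF (AN1918), at 75.9, 746, 79.8 and 1512 CPM (-3.24, -3.55 to -2.97). Fructose-1,6-bisphosphatase, encoded by acuG (AN5604), followed at 34.7, 241, 28.4 and 336 CPM (-2.73, -3.23 to -2.31). For all 3 the glucose libraries lay below the fructose libraries. As called genes they were picked by the pair ratio, and the share of all genes with this order was not computed. In ethanol and acetate use, 2 of 7 genes passed, facB and the aldehyde dehydrogenase gene aldA (AN0554), which was at 107, 596, 107 and 4408 CPM (-2.43, -2.71 to -2.17).

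Glycolysis differed little. Its 13 genes had a median of 0.26, 9 lay within 2-fold, and gpdC alone passed 4-fold. In the TCA cycle, 3 of 17 genes were 4-fold higher in fructose-ammonium (17.6%, against 6.65% of all genes). They were osm1 (AN1543) at -3.56 (-4.08 to -3.13), the NADP isocitrate dehydrogenase gene idpA (AN2999) at -3.18 (-3.85 to -2.66) and the aconitase gene acoA (AN5525) at -2.08 (-2.34 to -1.85). The list median was -0.76.

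Sugar transporters split by gene. Against mstE, 4 of the 6 measured genes were 4-fold higher in fructose-ammonium. The high-affinity transporter gene mstA (AN8737) had 0 reads in glucose-urea, 34 in fructose-ammonium, 1 in glucose with ammonium and 270 in fructose with urea, at least 34.3-fold higher in fructose-ammonium than in glucose-urea. The hexose transporter gene hxtA (AN6923) was at 0.589, 53.0, 12.7 and 1336 CPM (log2 ratio -5.16, -11.81 to -3.86), and the lactose permease gene lacpA (AN3199) at 0.589, 25.6, 1.53 and 18.5 CPM (-4.13, -10.81 to -2.69). Each of these ratios rests on 0 or 1 read in glucose-urea.

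Of 66 glycoside hydrolases, which break down plant and fungal polysaccharides, 13 were 4-fold higher in fructose-ammonium (19.7%, against 6.65% of all genes). In glucose-urea 1 was (1.52%, against 5.69%). The endoglucanase gene AN2388 was at 1.77, 250, 1.53 and 788 CPM in glucose-urea, fructose-ammonium, glucose with ammonium and fructose with urea (log2 ratio -6.53, -9.41 to -5.53). The arabinanase gene abnC (AN8007) had 0 and 45 reads and the glucuronidase gene AN2395 0 and 24 in the pair, at least 45.4-fold and 24.2-fold higher in fructose-ammonium. The glucoamylase gene glaA (AN11143) was at -5.20 (-11.85 to -3.91) with 1 read against 30. The list median of -0.77 was closer to that of all genes than these examples.

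Autolysis and secreted proteolysis, which recycle the fungus's own walls and proteins, had 3 of 7 genes 4-fold higher in fructose-ammonium and a median of -1.62. The dipeptidyl peptidase gene dppIV (AN6438) was at 28.3, 492, 21.9 and 1338 CPM (log2 ratio -4.04, -4.56 to -3.64). The alkaline protease gene prtA (AN5558) was at 24.7, 355, 31.5 and 955 CPM (-3.76, -4.32 to -3.32). For these genes both fructose libraries lay above both glucose libraries. They too were picked by the pair ratio, and this order has no baseline over all genes.

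Genes tied to sexual development were likewise on that side, 6 of 12 being 4-fold higher in fructose-ammonium, with a median of -1.70. The catalase-peroxidase gene cpeA (AN7388) had 0 reads in glucose-urea, 155 in fructose-ammonium, 3 in glucose with ammonium and 1756 in fructose with urea, at least 156-fold higher in fructose-ammonium. The zinc-cluster regulator genes rosA (AN5170) and nosA (AN1848) were at least 30.2-fold higher, from 0 reads against 30, and at -3.95 (-4.73 to -3.40). The psi-factor oxygenase gene ppoC (AN5028) was at 94.8, 801, 332 and 2357 CPM (-3.03, -3.31 to -2.78). The 6 genes taken as markers of fruiting were all in the comparison, and summed to 157 CPM in glucose-urea and 461 CPM in fructose-ammonium. Of these sums, cpeA made up 0 and 283 CPM. The others were nsdD at 0.37 (-0.13 to 0.91), steA at 0.08 (-0.80 to 1.07), nsdC at -0.89 (-1.57 to -0.24), veA at -1.25 (-3.06 to 0.29) and mutA, with 0 reads against 2. The part of fruiting tissue in these values was not tested. In the conidiation list, with a median of -0.33, 1 of 8 passed (12.5%, against 5.69% of all genes). That gene was flbA (AN5893), with 22 reads in glucose-urea and 1 in fructose-ammonium (2.38, 0.23 to 8.23).

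Secondary metabolite synthases were the last such list, with 7 of 19 at least 4-fold higher in fructose-ammonium, none in glucose-urea and a median of -1.53. The polyketide synthase gene AN8910 was at 1.18, 221, 0 and 167 CPM in glucose-urea, fructose-ammonium, glucose with ammonium and fructose with urea (log2 ratio -6.71, -10.58 to -5.63). The NRPS-like AN10297 was at -4.13 (-10.81 to -2.69) with 1 read against 14, the sterigmatocystin cluster gene stcK (AN7814) at -3.79 (-5.32 to -2.92) and the emericellamide synthetase gene easA (AN2545) at -2.93 (-3.93 to -2.20). Of 27 cytochrome P450 genes, 5 were 4-fold higher in fructose-ammonium (18.5%, against 6.65% of all genes). Their largest ratio was that of CYP548D1 (AN9007), at 3.53, 303, 9.98 and 3277 CPM (-6.07, -7.85 to -5.23). The P450 list had a median of -0.40 and no gene called higher in glucose-urea.

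Of the lists with at least 3 measured members, cytosolic ribosomal proteins had the highest median. They had 14 of 41 genes (34.1%, against 5.69% of all genes) at least 4-fold higher in glucose-urea and none in fructose-ammonium, with a median of 1.80. Summed over the list, their levels were 47240 CPM in glucose-urea, 13447 CPM in fructose-ammonium, 47821 CPM in glucose with ammonium and 3282 CPM in fructose with urea. The small-subunit gene AN5222 was at 2823, 486, 2581 and 56.6 CPM (log2 ratio 2.57, 2.40 to 2.76). Smaller counts lay behind nsa2 (AN2926), a 60S maturation factor in yeast that the word pattern of the list picked up, at 3.33 (1.31 to 9.20) with 44 reads against 1, and AN8176 at 2.70 (1.44 to 4.75) with 87 against 4. Glucose-urea thus matched glucose with ammonium closely in summed level, and the fructose media lay below.

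Ribosome biogenesis, the assembly of ribosomes in the nucleolus, had 9 of 78 genes (11.5%) 4-fold higher in glucose-urea, none in fructose-ammonium and a median of 0.77. The helicase gene dbp4 (AN0589) was at 3.39 (2.00 to 5.89) with 109 reads against 3, and rex4 (AN10955), grc3 (AN4599) and AN0728 had 55, 40 and 40 reads against 1 each. Of 56 genes for tRNA synthetases and translation factors, 4 passed (7.14%, near the 5.69% of all genes), with a median of 0.68. Best supported was AN4015, related to elongation and initiation factors, at 4053, 919, 4664 and 742 CPM (2.18, 2.05 to 2.31). Mitochondrial ribosomal proteins had a median of 0.70 with none of 35 past 4-fold. Of the 5 amino acid biosynthesis genes that were higher in glucose-urea, metA (AN8215) was at 2.85 (1.44 to 5.36), leu2B (AN2793) at 2.26 (0.80 to 4.76) and aroC (AN6866) at 2.25 (1.39 to 3.40), from 75, 49 and 150 reads against 3, 3 and 10.

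Respiratory chain genes had a median of 0.37. At least 4-fold higher were 1 of 58 in glucose-urea (1.72%, against 5.69% of all genes) and 2 in fructose-ammonium (3.45%, against 6.65%). The exception with the most reads was atp9 (AN20017), an ATP synthase subunit gene of the mitochondrial genome. It was at 461 CPM in glucose-urea, 4894 CPM in fructose-ammonium, 320 CPM in glucose with ammonium and 1066 CPM in fructose with urea (log2 ratio -3.37, -3.49 to -3.25). The other 8 mitochondrially encoded genes, a list put together after values had been seen, lay between -1.16 and 1.03, and the median of all 9 was 0.36. So atp9 departed from its genome neighbours rather than moving with them.

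Among 57 chaperone and heat shock genes, 5 were 4-fold higher in fructose-ammonium (8.77%, near the 6.65% of all genes). The median of the list was 0.31. The small heat shock protein gene AN7892 was at 80.7, 680, 33.4 and 34.5 CPM in glucose-urea, fructose-ammonium, glucose with ammonium and fructose with urea (log2 ratio -3.02, -3.33 to -2.75). The hsp30 gene (AN2530) was at 135, 768, 79.8 and 52.9 CPM (-2.46, -2.70 to -2.23), and AN3555 at 184, 1016, 110 and 38.1 CPM (-2.42, -2.63 to -2.23). In all 3, fructose-ammonium was highest and glucose-urea came next. AN5785 was the 1 chaperone gene higher in glucose-urea, at 2.67 (1.25 to 5.18) with 66 reads against 3. In oxidative stress defence, with a median of 0.06, 3 of 24 passed, all higher in fructose-ammonium (12.5%, against 6.65% of all genes). Among them were cpeA and the Cu/Zn superoxide dismutase gene AN1131 at -3.71 (-4.90 to -2.96).

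All 6 histone genes lay within 2-fold with a median of -0.03, as did 23 of 24 proteasome genes with a median of 0.24. Ergosterol synthesis had none of 27 past 4-fold and a median of 0.66. Peroxisome and fatty acid oxidation genes, 53 in all, had a median of -0.63. Past 4-fold were 3 in glucose-urea (5.66%, against 5.69% of all genes) and 5 in fructose-ammonium (9.43%, against 6.65%). Among the latter were the activator gene farB (AN1425) at -2.55 (-2.98 to -2.16) and foxA (AN7111) at -2.52 (-3.68 to -1.68). Trehalose, glycogen and polyol genes had a median of 0.01 with 1 of 15 past 4-fold (6.67%, against 6.65% of all genes). It was the glycogen debranching enzyme gene AN10060 at -2.86 (-3.44 to -2.39).

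To place the pair beside the doubly repressed medium, both libraries were set against glucose with ammonium. Both steps share that library, so their values are set side by side and no relation between them is computed. Replacing ammonium by urea in glucose (the urea step) left 70 of 6356 genes (1.1%) at least 4-fold higher and 38 (0.598%) lower. Replacing glucose by fructose with ammonium kept (the fructose step) left 514 of 6595 (7.79%) higher and 383 (5.81%) lower. Only genes of the comparison enter these counts. Genes with no count for glucose-urea or fructose-ammonium are left out, such as ureA in the urea step and AN2831 in the fructose step. The shares are therefore not those of the whole response to either nutrient. The 378 genes higher in glucose-urea had a median log2 ratio of 0.24 in the urea step and -2.36 in the fructose step. The 442 genes higher in fructose-ammonium had medians of -0.08 and 3.26. Median levels of the former were 43.0 CPM in glucose-urea, 5.48 CPM in fructose-ammonium, 35.3 CPM in glucose with ammonium and 23.4 CPM in fructose with urea, so fructose with urea lay between the glucose media and fructose-ammonium. Median levels of the latter were 6.48 CPM in glucose-urea, 70.4 CPM in fructose-ammonium, 7.87 CPM in glucose with ammonium and 129 CPM in fructose with urea. In both sets the median level in glucose-urea was closest to that in glucose with ammonium. Both sets were picked by the pair ratio, which uses the same glucose-urea and fructose-ammonium counts as these steps and levels. Their medians are therefore partly set by that choice and are no independent placement.

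**Figure D4:**
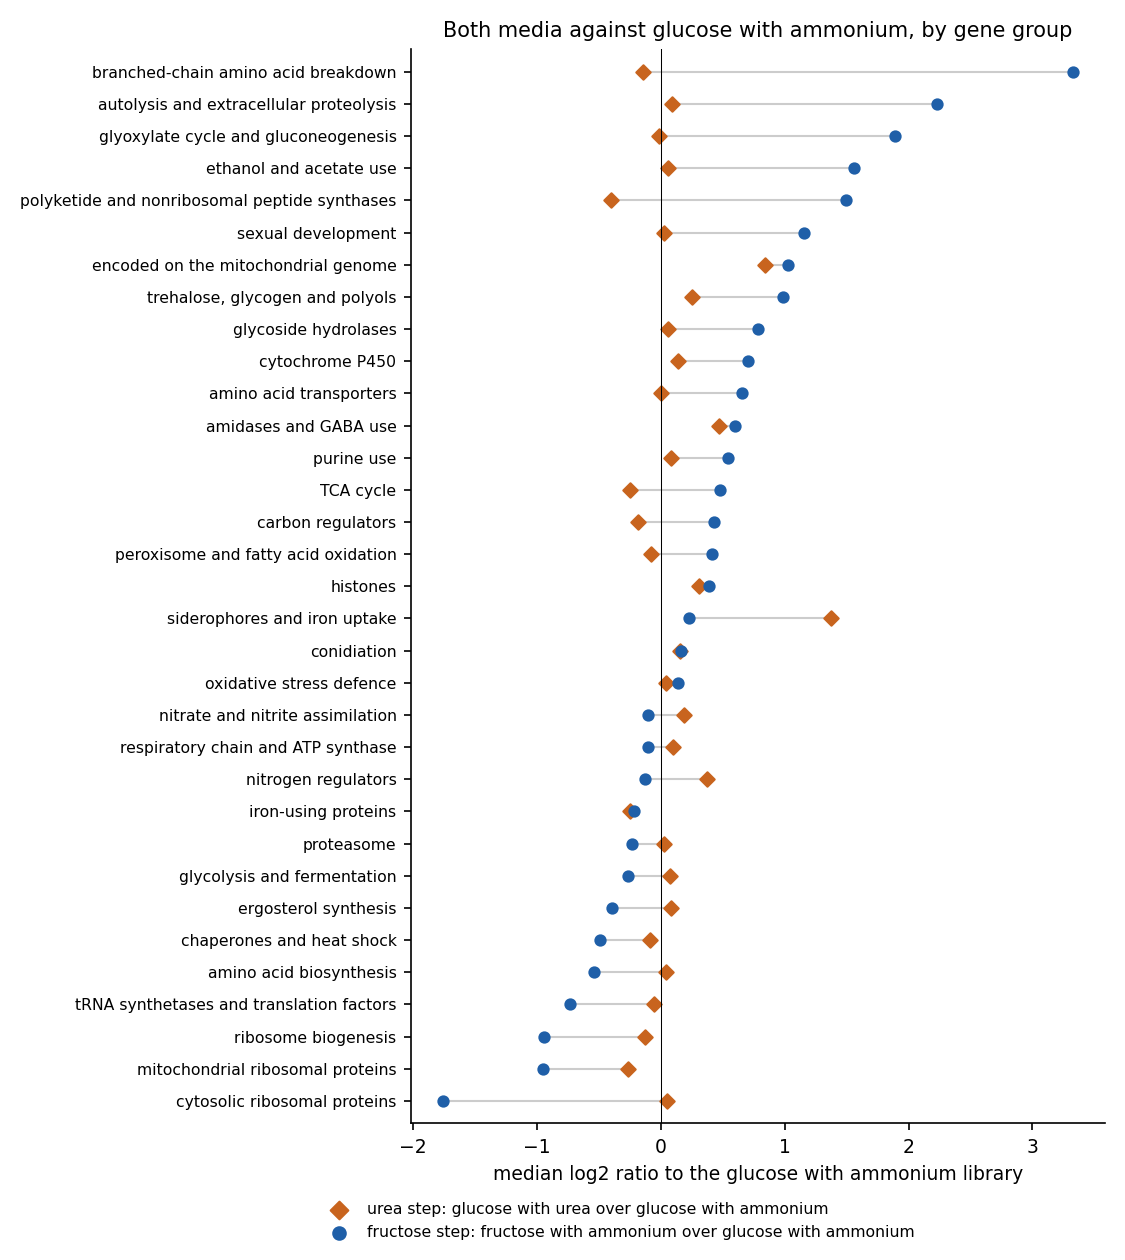
Median log2 ratio to the glucose with ammonium library for each gene list with at least 5 genes in both steps, diamonds for glucose-urea and circles for fructose-ammonium. Diamonds are furthest from 0 for siderophore and mitochondrially encoded genes, at 1.38 and 0.84, while circles run from -1.76 for cytosolic ribosomal proteins to 3.33 for branched-chain amino acid breakdown. The mitochondrially encoded and branched-chain lists were put together after values had been seen.

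Of the lists with at least 5 genes in both steps, siderophore and iron uptake genes had the highest median in the urea step, 1.38, against 0.23 in the fructose step. Siderophores are small iron chelators that fungi secrete and take back up by Mir and Sit transporters, under control of the GATA repressor SreA and of HapX. Between glucose-urea and fructose-ammonium the list was level, with a median of 0.00 and 11 of 19 genes within 2-fold. Past 4-fold was 1 gene in each direction (5.26%, against 5.69% and 6.65% of all genes). Its summed level was 9068 CPM in glucose-urea and 9290 CPM in fructose-ammonium, but 2846 CPM in glucose with ammonium and 3865 CPM in fructose with urea. In the urea step, 5 of the 18 measured genes of the list were 4-fold higher, against 1.1% of all genes. In the fructose step, 4 of 19 were, against 7.79% of all genes.

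Single siderophore genes are given with both steps and the pair. The transporter gene mirB (AN8540) had 4979 reads in glucose-urea, 2066 in fructose-ammonium, 430 in glucose with ammonium and 633 in fructose with urea, with log2 ratios of 4.20 in the urea step and 4.52 in the fructose step and -0.33 (-0.40 to -0.25) for the pair. The acetyltransferase gene ngn26 (AN8539), whose A. fumigatus orthologue is sidG, had 255, 306, 7 and 268 reads, with 5.63, 7.40 and -1.85 (-2.11 to -1.62). The regulator gene hapX (AN8251) had 62, 15, 18 and 9 reads, with 2.38, 1.90 and 0.44 (-0.38 to 1.37), and sreA (AN0176) was at -0.90, -0.74 and -0.17 (-1.03 to 0.76). The acyl-CoA ligase gene sidI (AN0609) was 4-fold higher in glucose-urea, with 718, 37, 202 and 22 reads and log2 ratios of 2.50, -0.19 and 2.67 (2.20 to 3.20). The reductase-like AN8683 was on the other side at -3.62 (-5.71 to -2.57), with 5 reads against 26.

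**Figure D5:**
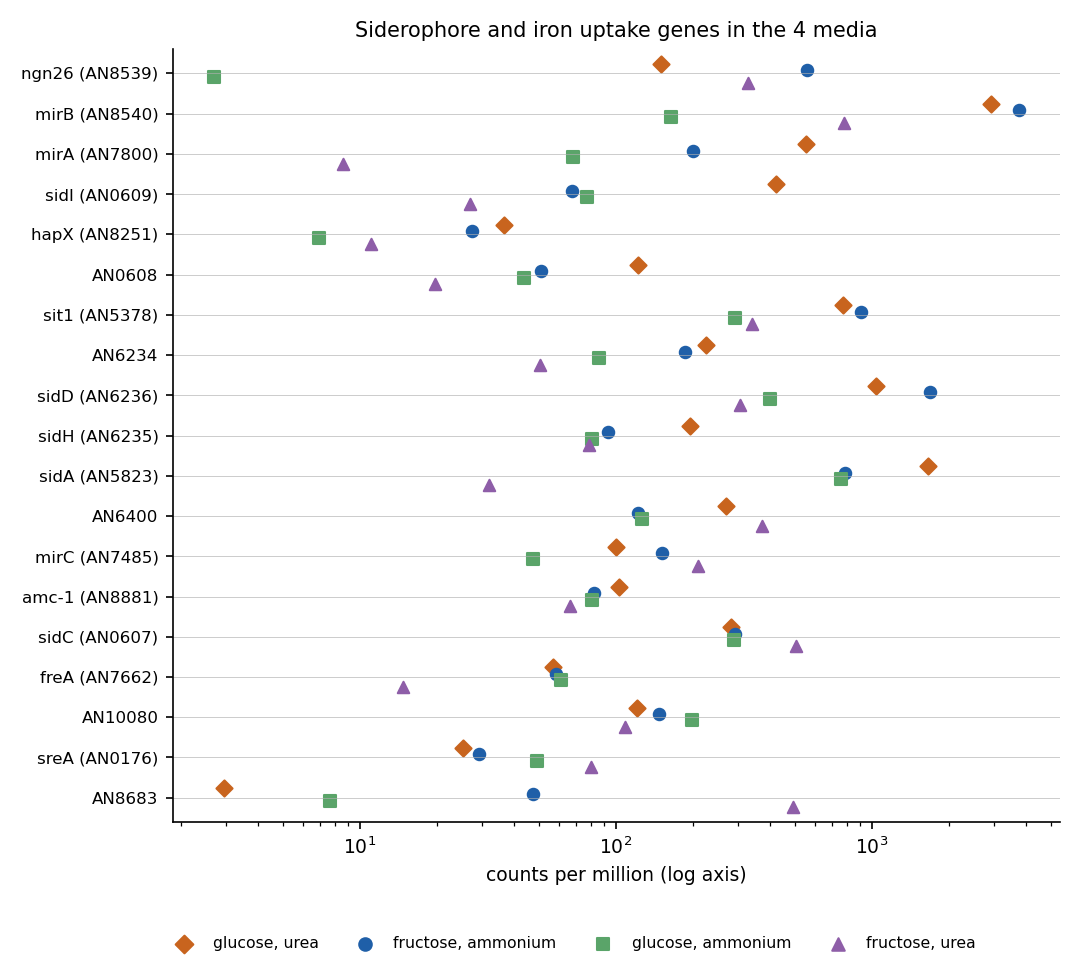
Levels of 19 siderophore and iron uptake genes in CPM on a log axis, 1 symbol for each of the 4 libraries. For ngn26 and mirB the glucose with ammonium symbol lies far to the left of the glucose-urea and fructose-ammonium symbols, which are close together for mirB, whereas sidI is highest in glucose-urea alone.

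Iron-using proteins, whose genes HapX represses when iron is scarce, had a median of 0.10. Of 26 genes, 2 were 4-fold higher in glucose-urea (7.69%) and 1 in fructose-ammonium (3.85%), against 5.69% and 6.65% of all genes. The heme synthesis gene AN2733, related to uroporphyrinogen decarboxylase, was at 3.60 (2.00 to 6.96) with 90 reads against 2. AN7611 was at 2.08 (1.21 to 3.23), and acoA was the gene on the other side.

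Reads from the opposite strand, a readout the comparison did not use, were available for most called genes. Of 359 genes higher in glucose-urea with antisense counts in both libraries, 280 were also higher in glucose-urea on the antisense strand and 77 the other way. Of 423 higher in fructose-ammonium, 375 were higher the same way and 36 the other way. The same shares over all measured genes were not computed, so these counts have no baseline. For AN4822 the antisense reads were 5 in glucose-urea and 2929 in fructose-ammonium, and for mstE 914 and 16. In the library where a gene was higher, antisense reads made up a median of 22.9% of its reads on both strands for the glucose-urea side and 20% for the fructose-ammonium side. Whether these reads are antisense transcripts or sense reads assigned to the other strand was not tested.

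Called genes were also placed along the chromosomes by RefSeq gene order. Of 343 genes higher in fructose-ammonium with a measured neighbour, 78 (22.7%) had a neighbour higher in fructose-ammonium too, against 8.53% of all 5780 genes with a measured neighbour. On the glucose-urea side 43 of 333 (12.9%) did so, against 9.01%. Runs of 3 or more adjacent genes numbered 7 for fructose-ammonium and 1 for glucose-urea. Besides the runs around AN4822 and gpdC, the fructose-ammonium runs held AN10588 with mccA on chromosome III, rosA on chromosome V and glaA on chromosome VII. The glucose-urea run, on chromosome II, held metA.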

How the data were processed

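Per the file headers, the authors deposited tables of whole-number read counts per gene and strand for pairs of libraries, with their log2 fold change, mean log2 CPM, p-value and FDR. HTSeq and edgeR were used, per the submitters' processing notes, with no version. A name for the aligner, build or annotation was not given in the sources used here. Table names state a coefficient of variation of 0.3, an assumed spread, so the authors' deposited p-values were not used. The deposited log2 fold changes served only as an alternative route, and 16 columns of normalised values were not used.

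Counts of both libraries were joined by gene identifier and scaled by TMM over the joined genes (edgeR 4.0.16, R 4.3.3). Log2 ratios carry a prior count of 1, and genes with a mean log2 CPM under 3 were left out of counts of genes. A gene was called at 4-fold or more. A gene at 0 in 1 library was called only if its bound, with 3 counts in place of 0, reached 4-fold. The scripts were tested on simulated data. With no replicates, no test was made.

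Symbols of 1178 of 7752 genes came from the deposited names and 397 from RefSeq ASM1142v1, which also gave the gene order for 6331 of the 6643 measured genes, with no coordinates taken. The text names the 15 highest and 15 lowest ratios among called genes, up to 4 called members of each list (up to 3 of largest ratio where none was called) and fixed regulators. Genes named besides, such as gpdA, glnA, gltA, mirB, ngn26 and the marker and neighbour genes, were chosen after their values were seen. The members and lists were chosen with earlier results of these data known. The word patterns of the 40 lists were corrected from the description text, and 2 lists were put together after values were seen. Of the listed symbols, 94 had no match. Genes with near-identical copies may share reads, which the counting could not resolve. Alternatives covered scaling, prior count, abundance minimum, the set of genes, the rule for genes at 0, the interval and the authors' fold changes. One gene that the naming rule allows is not reported here.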

Additional observations from a re-analysis of the deposited data

How the results depend on the processing

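No paired analysis was possible because each condition has 1 library. Scaling by RLE, total counts or upper quartile, and restriction to genes with reads in both or listed for all 4 libraries, kept the counts of called genes within 1.5 times. Of 378 genes higher in glucose-urea, a prior count of 5 left 231, a minimum of 5 left 181 and a whole interval beyond 4-fold 67. Of 442 higher in fructose-ammonium, the minimum of 5 left 230, the interval 267 and the authors' fold changes through glucose with ammonium 211, a route that lists fewer genes and moves the median of all genes from 0.06 to 0.18. In the urea step, 70 genes higher became 42 with a prior count of 5, 122 with no minimum, 26 with a minimum of 5 and 30 by the interval, and 38 lower became 20, 65, 8 and 9. In the fructose step, 514 higher became 262 with a minimum of 5 and 320 by the interval, and 383 lower became 176 and 64. Lists with a median 2-fold higher in glucose-urea numbered 1 instead of 2 through the authors' fold changes by way of fructose with urea. For counts that fell under the higher minimum or the interval, fewer genes could pass; for the other moves the cause was not tested. Among 107 named called genes none changed direction in any alternative that measured it, and 100 stayed past 4-fold with a prior count of 5, 71 with a minimum of 5 and 80 by the interval. The depth of fructose-ammonium limits 4-fold calls, since a gene at 0 there needs 21.9 CPM in the other library. An alternative chosen after seeing the data, keeping the 5801 genes that reach this level in either library, left 301 and 430 calls. The alternatives for the single steps were also added after seeing the data.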

Other observations

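Outside the join, 246 genes had a listed count for fructose-ammonium alone and 81 for glucose-urea alone, so no ratio of the pair was formed for them. Each had at least 11.0 CPM in fructose-ammonium or at least 10.6 CPM in glucose-urea. A missing count goes with a low level in that library and in the libraries paired with it. These genes can thus differ strongly between the media without entering the counts of called genes. The most abundant on the fructose-ammonium side was AN2831, with a predicted membrane transport domain, at 2774 reads (5071 CPM), against 5 reads in glucose with ammonium and 1 in fructose with urea. AN4003, a second putative tartrate dehydrogenase gene, had 1026 reads in fructose-ammonium, 16 in glucose with ammonium and 5 in fructose with urea. The oxidoreductase-like AN5030 had 332 reads in fructose-ammonium, 0 in glucose with ammonium and 1 in fructose with urea. Next in number to it, the putative malate dehydrogenase gene mdhB (AN5031) had 191 reads in fructose-ammonium and 0 in both of these libraries. All 4 were thus high in fructose-ammonium among the 3 libraries that list them.

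On the glucose-urea side the 2 most abundant of these genes belong to nitrogen uptake. The high-affinity urea transporter gene ureA (AN0418) had 151 reads in glucose-urea, 1 in glucose with ammonium and 5 in fructose with urea. The ammonium permease gene mepA (AN1181) had 122 reads in glucose-urea, 0 in glucose with ammonium and 5 in fructose with urea. The cell surface protein genes AN8913 and AN7323, both with a predicted lipid anchor, followed with 93 and 84 reads. These genes were picked by their abundance after the values were seen.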
